A study of Mus musculus with 17 samples.

Results

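The ageing of wild-type long-term haematopoietic stem cells (LT-HSCs) was described from 6 one-colour microarrays out of the 17 of the series: 3 of LT-HSCs from mice aged 2 months and 3 from mice aged 12 months, chosen by their sample labels. The cells were sorted from bone marrow as lineage-negative, Sca-1-positive and c-Kit-positive cells that lacked CD48 and carried CD150. Each sample was 1000 cells, amplified as a whole transcriptome before Cy3 labelling, and the cells were pooled from 4 to 5 mice. Nothing in the labels gives each replicate a pool of its own, so the spread behind a p-value is that of these samples and may be technical. The comparison group was 5 arrays of LT-HSCs from CD41-knockout (CD41-KO) mice, in which Itga2b, the gene of the CD41 integrin chain, is disrupted, with 2 arrays at 2 months and 3 at 12 months. Strain and sex were not in the labels. The 6 arrays of the CD41 sort were not used here. Itga2b was at -2.27 and -1.44 in CD41-KO cells at 2 months and at -1.48, -0.64 and -0.64 at 12 months, on the log2 scale defined below, and at 0.42 to 1.01 on the wild-type arrays, so the groups did not overlap. Whether its probe lies in the disrupted part of the gene was not analysed.

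LT-HSCs are the rare bone marrow cells that can renew themselves and supply all blood lineages for life. With age they become more numerous by surface phenotype, give rise to fewer lymphoid and relatively more myeloid and platelet progeny, and repopulate less well when transplanted. Cell adhesion and platelet-lineage genes such as Selp, Vwf and Itgb3 and the secreted chaperone Clu are known to rise in aged HSCs of mice.

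Before any age effect is given, the 2 wild-type groups differed in sex-linked transcripts. Levels below are log2 of an array's background-subtracted signal over that array's 75th percentile, so 0 is the 75th percentile of the array and 1 unit is 2-fold. Xist, the RNA made from the inactive X chromosome of female cells, was at -2.20, -2.47 and -2.17 on the 2-month arrays of replicates 1, 2 and 3 and at 5.18, 4.63 and 4.83 on the 12-month arrays. The Y-linked helicase gene Ddx3y was at -1.14, -1.59 and -1.38 at 2 months and was not well above background on any 12-month array, which makes it at least 10.68-fold lower there. By the same bound Uty was lower at 12 months by at least 3.95-fold. For Kdm5d the bound was 3.06-fold. Eif2s3y fell less, from -0.53, -0.70 and -0.57 to -1.95, -2.03 and -2.17, and stayed well above background on all 3 12-month arrays. In CD41-KO cells Eif2s3y was at -2.33 to -2.28 at 2 months and -1.82 to -1.50 at 12 months. The wild-type groups thus carried the transcripts of opposite sexes, and age and sex cannot be told apart in this comparison. All CD41-KO arrays carried Xist, at 5.07 to 5.48 at 2 months and 4.27 to 4.83 at 12 months, and Ddx3y there was at -6.36 or lower, so the CD41-KO age comparison was not split by sex in this way. Probes placed on the X or Y chromosome were left out of every test.

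**Figure D1:**
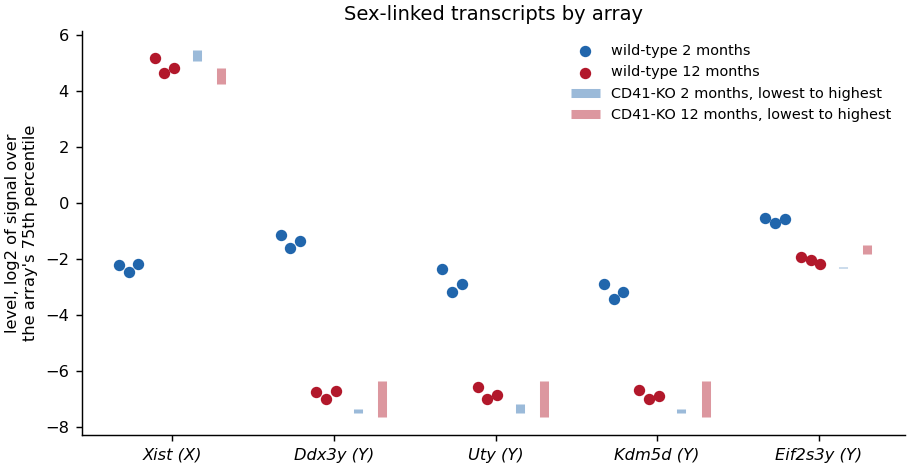
Levels of Xist and 4 Y-linked genes (vertical axis, log2 of signal over the array's 75th percentile) on each wild-type array, with the range of the CD41-KO arrays as bars. Xist is low and Ddx3y, Uty and Kdm5d are high on the 2-month wild-type arrays, and the 12-month wild-type and CD41-KO arrays show the reverse. Eif2s3y is also lower on those arrays, but stays well above background on the 12-month wild-type ones.

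The markers of the gate and of HSCs were present. Kit was at 2.06, 1.72 and 1.81 at 2 months and 1.94, 1.68 and 1.79 at 12 months. Ly6a, which encodes Sca-1, was at 0.27, 0.13 and 0.10 against 0.20, 0.05 and 0.12. Neither difference passed the test (log2 fold change -0.06 ± 0.06 SE, adjusted p = 0.41, and -0.04 ± 0.05, adjusted p = 0.54, limma). The HSC genes Procr, Hlf, Mecom and Fgd5 and the CD150 gene Slamf1 were well above background on all 6 wild-type arrays. So were Cd48 and Flt3, which the gate or the stem cell identity should exclude, and neither passed the test between ages (0.20 and 0.06).

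The age effect was fitted over 30984 genes, of which 17984 had a symbol in the RefSeq table and are called annotated here. A gene was called at an adjusted p under 0.05. At 12 months 7719 genes (24.9%) were called higher and 5805 (18.7%) lower. Among annotated genes the shares were 21.8% higher and 24.3% lower, and these shares are the background for the gene groups below. A change of at least 2-fold was rarer: 702 genes (2.27%) were higher and 293 (0.946%) lower, and among annotated genes 392 (2.18%) and 207 (1.15%). The 3 arrays of the ages did not overlap for 31.7% of genes. Most called changes were small, with a median size of 0.44 on the log2 scale for annotated genes, and the median over all genes was 0.08.

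These counts rest on the pairing of arrays by replicate number, since each number lay on its own slide. Without the replicate block 2383 genes (7.69%) were higher and 1846 (5.96%) lower, while the counts at 2-fold were 611 and 262. Without the replicate 1 arrays of both ages the calls fell to 3842 higher and 3190 lower, and without those of replicate 2 to 4193 and 3314. The split of directions also depended on the scaling: 57.08% of called genes were higher with the 75th percentile and 44.97% with the median of each array.

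The metallothioneins Mt1 and Mt2, small cysteine-rich proteins that bind zinc and copper and are induced by metals and glucocorticoids, were among the genes with the highest rise. The Mt2 probe lies at chr8:96697371-96697430 of mm9. Mt2 was at -3.50, -2.94 and -3.67 at 2 months and at 2.18, 1.86 and 1.98 at 12 months. That is a log2 fold change of 5.38 ± 0.18 (SE, n = 3 pairs, adjusted p = 1.1e-05, limma), or 41.5-fold. Mt1 was at -1.58, -2.10 and -1.75 at 2 months and at 1.88, 1.44 and 1.73 at 12 months (3.50 ± 0.06, adjusted p = 4.1e-07). The groups lay far apart for both genes, and the 3 pairs of Mt1 differed by only 3.46 to 3.54. Mt2 rose by about as much in CD41-KO cells, by 5.05 ± 0.21, and the difference between genotypes of 0.33 ± 0.27 did not pass (adjusted p = 0.38). Mt1 rose by 2.32 there, and its larger rise in wild-type cells passed the test of the difference (1.17, adjusted p = 0.00035).

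The pair is shown with the bases before each gene's start because both genes moved together. Both are also known to be switched on through metal response elements. The pattern searched was TGCNCNC, with any base at each N, so a match need not be such an element. Sequences are from RefSeq on GRCm38.p6 and run 5′ to 3′ on the plus strand, and capitals mark matches to TGCNCNC on either strand. The windows are chr8:94178839-94179088 for Mt1 and chr8:94172368-94172617 for Mt2.
Mt1: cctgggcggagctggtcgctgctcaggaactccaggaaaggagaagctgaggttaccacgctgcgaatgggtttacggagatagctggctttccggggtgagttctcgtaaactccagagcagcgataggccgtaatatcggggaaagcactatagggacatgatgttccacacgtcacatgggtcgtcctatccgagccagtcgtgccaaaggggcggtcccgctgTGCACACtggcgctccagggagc
Mt2: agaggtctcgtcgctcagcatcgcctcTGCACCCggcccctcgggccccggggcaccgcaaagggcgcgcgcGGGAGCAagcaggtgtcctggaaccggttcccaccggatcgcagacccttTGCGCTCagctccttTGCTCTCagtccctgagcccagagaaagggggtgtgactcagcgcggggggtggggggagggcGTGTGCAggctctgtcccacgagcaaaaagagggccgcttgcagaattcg
The Mt2 window held 5 matches, 3 on the strand shown and 2 on the other, and 0.344% of the 32851 promoter windows of this length held at least 5. The Mt1 window held 1 match, and 44.4% of all windows held at least 1. A match describes letters only.

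Platelet and adhesion genes of the HSC formed the next group. Selp, which encodes the adhesion receptor P-selectin of platelets and endothelium, was at -4.20, -3.94 and -3.79 at 2 months and 0.23, -0.17 and 0.07 at 12 months. It rose by 4.02 ± 0.14 (adjusted p = 1.2e-05), with no overlap of the groups. In CD41-KO cells it rose by 1.97, less than in wild-type cells by 2.05 (adjusted p = 0.00068). Vwf, which encodes von Willebrand factor and marks platelet-biased HSCs, went from 1.503, 1.21 and 1.30 to 3.06, 2.68 and 2.64 (1.45 ± 0.07, adjusted p = 3.0e-05). Its rise of 1.30 in CD41-KO cells could not be distinguished from this (difference 0.16, adjusted p = 0.26). Itgb3, the beta-3 integrin chain that pairs with CD41, rose by 0.88 ± 0.08, and by 1.90 in CD41-KO cells, a difference that passed (-1.02, adjusted p = 0.0013). Thbs1, the platelet protein thrombospondin 1, was well above background on only 1 of 3 arrays at 2 months and on all 3 at 12 months, and rose by 1.91 ± 0.16. The platelet alpha-granule protein gene Mmrn1 rose by 0.65 ± 0.06 in wild-type cells, a call that was lost without the replicate block (adjusted p = 0.075).

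As a list the megakaryocyte and platelet genes had a median of 0.10, against 0.08 over all genes. Of 38 members tested 14 were higher and 5 lower, and without the block 8 and 2. Itga2b itself was at 1.01, 0.63 and 0.92 at 2 months and 0.58, 0.42 and 0.67 at 12 months. Its groups overlapped, and the difference of -0.29 ± 0.25 did not pass (adjusted p = 0.36, limma). The spread in this test took in the CD41-KO arrays, where Itga2b is disrupted. All 3 wild-type pairs fell, at -0.43, -0.20 and -0.25, and Itga2b was called lower under 1 of 21 alternatives. Pf4, the platelet chemokine, was lower by 0.23 ± 0.06 (adjusted p = 0.013), with overlapping groups, and this call was lost without the block (adjusted p = 0.31) and without any 1 of 3 single arrays (2-month replicate 1 or 2, 12-month replicate 2). Zfpm1, which encodes a cofactor of GATA factors, fell by 0.62. Gata1 is X-linked and was not tested.

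**Figure D2:**
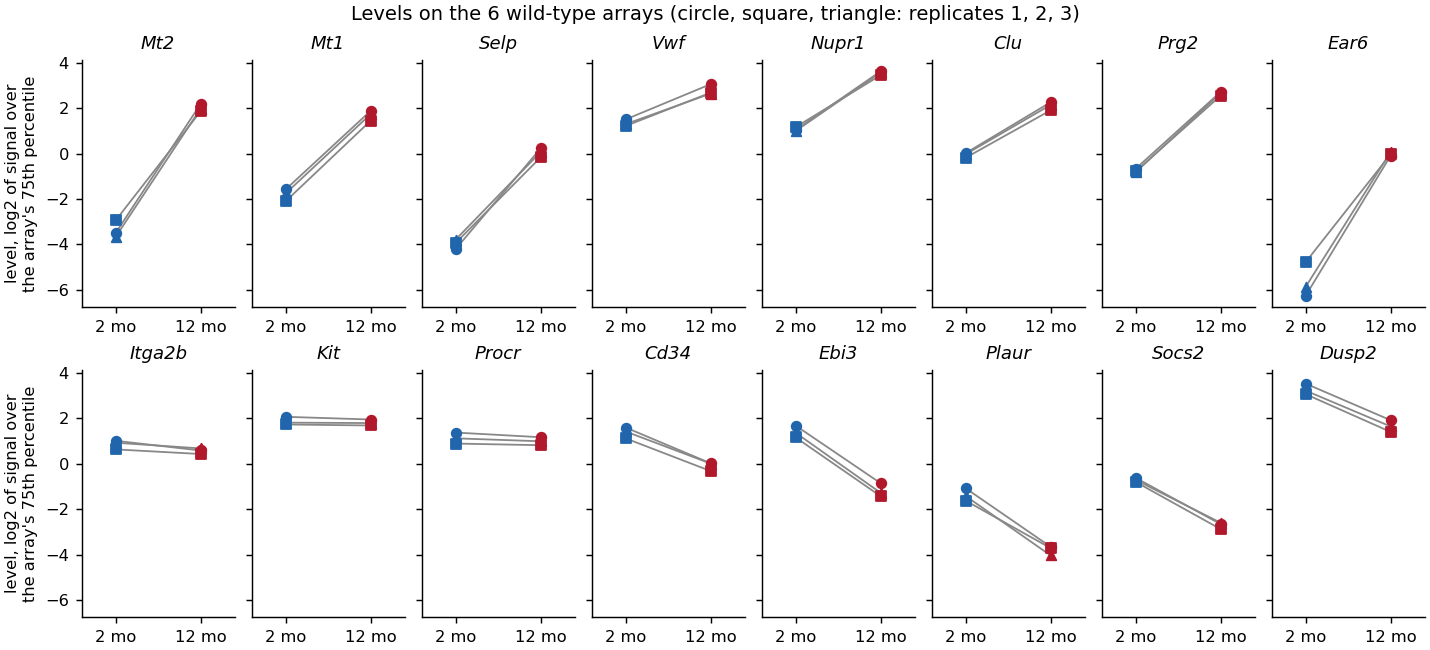
Levels of 16 genes (vertical axis, log2 of signal over the array's 75th percentile) on the 6 wild-type arrays, with lines joining arrays of the same replicate number. Mt2 and Ear6 rise the most, Itga2b, Kit and Procr lie nearly level, and Ebi3, Plaur, Socs2, Cd34 and Dusp2 fall in all 3 pairs.

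The list of genes known to rise in aged HSCs, chosen with results of these data known and so no independent evidence, had 40 tested members of 44. Of these 33 were higher and 2 lower, 15 of them higher by at least 2-fold, and the median was 0.80. Without the replicate block 25 were higher and 1 lower. Nupr1, which encodes a small stress-induced chromatin protein, went from 1.04, 1.16 and 1.00 to 3.62, 3.45 and 3.57 (2.48 ± 0.07, adjusted p = 6.0e-06). Clu went from 0.02, -0.18 and -0.03 to 2.26, 1.90 and 2.14 (2.17 ± 0.06, adjusted p = 6.0e-06). Neither gene had overlapping groups, and the rise of Nupr1 in CD41-KO cells, 2.23, was not distinguishable from that in wild-type cells (adjusted p of the difference 0.11). Aldh1a1, the retinaldehyde dehydrogenase gene, rose by 1.73 and Sult1a1, a sulfotransferase gene, by 1.42. Plscr2, a phospholipid scramblase gene, was not well above background on any 2-month array and was at -2.48, -2.78 and -2.49 at 12 months, at least 4.61-fold higher. The 2 members called lower were Mpdz, by 0.65, and Jam2, by 0.51. The call of Jam2 was lost without the block (adjusted p = 0.18) and with 5 of the 6 wild-type arrays left out in turn (all but 2-month replicate 1), and its direction turned with the mean of its probes (0.57). Slamf1, which encodes the CD150 receptor used in the gate, rose by 0.88 ± 0.18 (adjusted p = 0.007). Other members, such as Gpr183 and Stat4, were at 0.04 and 0.03 and did not pass.

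Of 40 tested genes that mark LT-HSCs, 8 were higher and 11 lower, shares near the background, with a median of -0.09. Without the block 6 were higher and 2 lower. Procr, the endothelial protein C receptor of HSCs, was at 1.37, 0.88 and 1.11 against 1.16, 0.81 and 0.98 and did not pass (-0.14 ± 0.08, adjusted p = 0.18). The HSC transcription factor gene Hlf was lower by 0.35 ± 0.06 (adjusted p = 0.0038), a call that was lost without the block (adjusted p = 0.11). Cd34, whose product is low on adult LT-HSCs and higher on progenitors, went from 1.59, 1.11 and 1.42 to 0.02, -0.33 and 0.01. This fall by 1.47 ± 0.07 (adjusted p = 4.2e-05) stood in both the HSC and the multipotent progenitor list, and a second probe of the gene fell by 0.50. Among progenitor genes 4 of 22 were higher and 9 lower, and 0 and 4 without the block. Spi1, which encodes the myeloid factor PU.1, fell by 1.30 ± 0.10 and Cd27 by 0.50, the latter not past the threshold without the block. Flt3 (0.06 ± 0.17, adjusted p = 0.81) and Cd48 (0.20 ± 0.11, adjusted p = 0.16) did not pass.

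Hox genes, which encode the homeodomain factors that set position in the embryo and act in stem cells of the blood, were higher in 11 of 22 tested members and lower in 2, with a median of 0.37. Without the block 8 were higher and 1 lower. Hoxb5, whose expression marks LT-HSCs in mice, went from -2.21, -2.30 and -2.21 to -0.85, -1.22 and -1.13 (1.17 ± 0.09, adjusted p = 0.00018). Hoxb2 and Hoxb6 rose by 0.81 and 0.91, and Hoxc6, which was well above background on only 1 of the 2-month arrays, by 1.79. Hoxd9 was at -6.59, -5.72 and -4.46 at 2 months, above background on 1 array, and at -2.22, -2.88 and -2.71 at 12 months (2.99 ± 0.42, adjusted p = 0.0014). Hoxb8 was not well above background on any 2-month array and was at least 4.24-fold higher at 12 months. Hoxa3 and Hoxa5 were called lower, by 0.52 and 0.27, and Hoxa9 at -0.20 did not pass. Hoxa9 was called lower under 5 of 21 alternatives, and its change ran from -0.86 to -0.13 over all of them. The call of Hoxa5 was lost without the block (adjusted p = 0.36) and without replicate 1 of either age. In CD41-KO cells 5 members were higher and 6 lower, with a median of 0.18, and the difference between genotypes passed for 9 members with the higher effect in wild-type cells and for 1 in the other direction.

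Granule genes of eosinophils, the white cells that defend against parasites, rose beside these. Prg2, which encodes the major basic protein of the eosinophil granule, went from -0.67, -0.78 and -0.82 to 2.71, 2.55 and 2.67 (3.40 ± 0.06, adjusted p = 5.1e-07). Ear6, an eosinophil-associated ribonuclease gene, was at -6.26, -4.78 and -5.86 at 2 months, well above background on 1 array, and at -0.09, -0.03 and 0.08 at 12 months (5.62 ± 0.24, adjusted p = 2.6e-05). Ear genes are close copies of one another, so which copy gave the signal is uncertain. Epx, the eosinophil peroxidase gene, rose by 1.60 and Hdc, the histamine-forming enzyme gene, by 1.16. The further granule gene Prg3 rose by only 0.52, with overlapping groups, and its call was lost without the block (adjusted p = 0.37, limma). In the fixed list of mast cell, basophil and eosinophil markers 12 of 17 tested members were higher and 1, Siglecf, was lower, with a median of 0.44. Without the block 7 were higher and 0 lower, and the call of Siglecf (-0.38, adjusted p = 0.045) was also lost without any single wild-type array. Their summed level, in units of the array's 75th percentile, was 15.1 to 16.4 at 2 months and 27.4 to 28.3 at 12 months, and 14.5 to 15.02 and 17.4 to 19.2 in CD41-KO cells. Of the receptor genes of these cells, Ccr3 rose by 0.39 (adjusted p = 0.014), a call that was lost without the block (adjusted p = 0.12) and without 12-month replicate 1 or 3, and Il5ra (0.06) and Fcer1a (0.07) did not pass. The mast cell protease gene Cpa3 was at -0.29 (adjusted p = 0.055). More RNA per stem cell and a few cells of another type cannot be told apart in bulk samples, and the part of such cells in the result was not tested.

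Of the other cell type lists, B and plasma cell markers had 5 of 11 members higher and 1 lower, and 1 and 1 without the block. Their summed level was 76.1 to 95.8 at 2 months and 104 to 107.6 at 12 months. Jchain, the joining chain gene of secreted antibodies, was well above background on 1 of 3 arrays at 2 months and on all 3 at 12 months and rose by 2.47 ± 0.31 (adjusted p = 0.00092), while the B cell receptor component Cd79b fell by 0.50. Of 8 neutrophil markers 4 were higher and 2 lower, and without the block 1 and 0. Of 12 T and NK cell markers 6 were higher and 1 lower (2 and 0 without the block), and of 12 macrophage markers 3 and 0 (1 and 0). Endothelial markers had 4 of 11 higher and 2 lower (3 and 0 without the block). Of 7 erythroblast markers 1 was higher and 2 lower (1 and 1 without the block), and their summed level was 3.49 to 4.01 at 2 months and 2.82 to 3.28 at 12 months. Stromal markers had 2 of 10 higher and 3 lower, among them Sparc (-1.99) and the niche chemokine gene Cxcl12 (-1.46). Without the block 1 stromal marker was higher and 2 were lower. The class II antigen presentation genes H2-Ab1, H2-Aa and H2-Eb1 rose by 0.98, 0.74 and 1.39, while the class II chaperone gene H2-DMa fell by 0.53. Of the 21 members of the antigen presentation list 4 were higher and 6 lower, shares near the background. Without the block 3 were higher and 1 lower.

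Genes of energy production fell in small steps. In the oxidative phosphorylation list, subunits of the mitochondrial respiratory chain and ATP synthase, 26 of 39 tested members were lower and 0 higher, where 24.3% of annotated genes were lower. The median was -0.29, and -0.38, -0.30 and -0.26 in the pairs of replicates 1, 2 and 3. With all genes in 4 bins of equal size by level, the brightest bin had a median of 0.05. Sdhb, a subunit of succinate dehydrogenase, went from 1.15, 0.63 and 0.97 to 0.42, -0.04 and 0.25 (-0.70 ± 0.07, adjusted p = 0.00038), and Ndufv1, the complex I subunit that binds NADH, fell by 0.69 ± 0.07. The fall was small beside the spread between slides: without the replicate block 5 members were lower, and without the replicate 1 or the replicate 2 pair 16 were. In CD41-KO cells 38 members were lower, with a median of -0.86, and the difference between genotypes passed for 30 members.

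Cell division genes fell likewise, with 23 of 40 tested members lower, 5 higher and a median of -0.29. Without the block 10 were lower and 1 higher. Rrm2, which encodes the ribonucleotide reductase subunit that supplies DNA precursors, went from 0.07, -0.21 and -0.05 to -0.76, -1.10 and -0.95 (-0.87 ± 0.07, adjusted p = 0.00016). Genes that license DNA replication fell with it, Cdt1 by 0.86 and Mcm2 by 0.81, as did the mitotic genes Bub1 (0.83) and Cenpa (0.70). The G1/S cyclin gene Ccne1 rose by 0.56, and Top2a (0.12) and Cdk1 (-0.12) did not pass. The decline was larger in CD41-KO cells, with 34 members lower and a median of -0.87, and the difference passed for 27 members.

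Protein folding genes were lower in 17 of 29 tested members and higher in 3, with a median of -0.31. Hsf1, the master factor of the heat shock response, fell by 0.83 ± 0.08, Atf4 of the integrated stress response by 0.66 ± 0.06 and the chaperone genes Hsph1 and Hspe1 by 0.56 and 0.47. Chromatin regulators were lower in 20 of 40 and higher in 5. Hmga2, a chromatin protein high in fetal HSCs, went from -1.11, -1.55 and -1.43 to -2.65, -2.67 and -2.59 (-1.27 ± 0.09, adjusted p = 0.00012). Smarca4, the motor of the BAF remodelling complex, fell by 0.60, Ezh2 of Polycomb by 0.45, and the DNA methylation cofactor gene Uhrf1 by 0.59. The calls of Uhrf1 and Hspe1 were lost without the block (adjusted p = 0.071 and 0.14). Without the block 7 members each of the folding and chromatin lists were lower. Of 40 ribosomal protein genes 2 were higher and 10 lower, the latter near the background share, and 0 were called without the block.

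**Figure D3:**
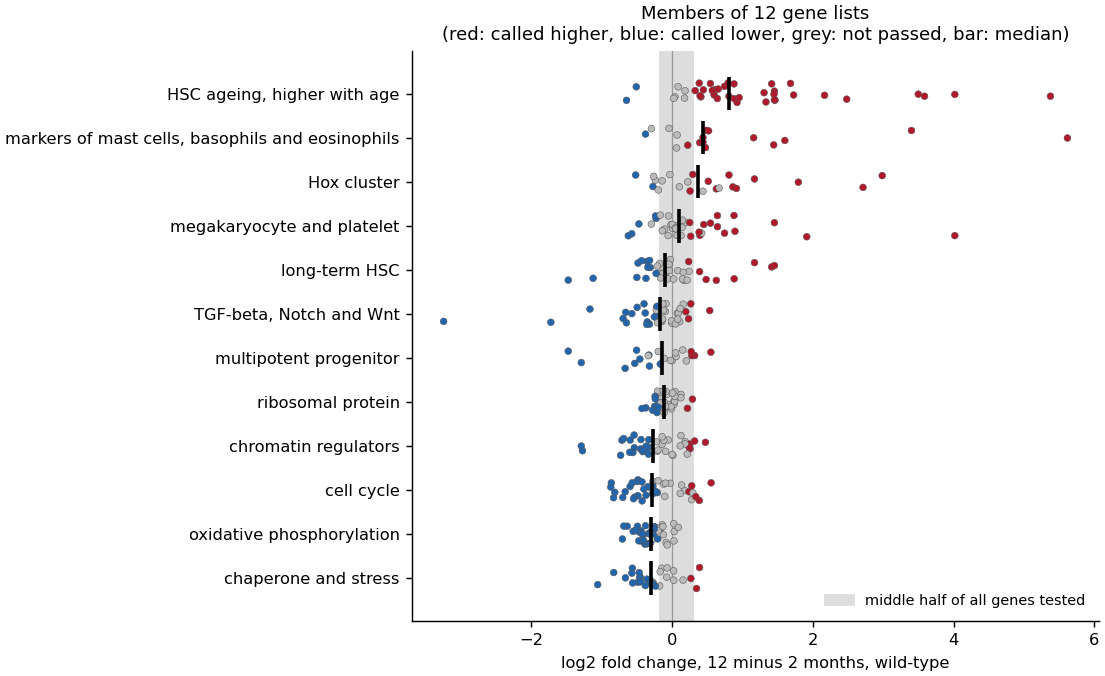
Log2 fold change from 2 to 12 months (horizontal axis) of each tested member of 12 gene lists, with the median as a bar and the middle range of all genes, -0.17 to 0.30, shaded. The HSC ageing list and the list of mast cell, basophil and eosinophil markers reach far to the right. The medians of oxidative phosphorylation (-0.29), cell cycle (-0.29) and chaperone genes (-0.31) lie left of 0, with some cell cycle and chaperone members to the right.

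Signalling genes held several of the largest falls. Hey1, a transcriptional repressor switched on by Notch, was at -3.04, -4.00 and -3.58 at 2 months and not well above background on any 12-month array, at least 2.38-fold lower. The Notch glycosyltransferase gene Lfng fell by 1.17 ± 0.09. Smad7, the feedback inhibitor of TGF-beta signalling, was at least 2.06-fold lower, Tgfb1 fell by 0.65 and its receptor gene Tgfbr2 by 0.69. In the list of TGF-beta, Notch and Wnt genes 16 of 40 tested members were lower and 4 higher. Without the block 7 were lower and 0 higher. Socs2, a feedback inhibitor of cytokine signalling, went from -0.62, -0.80 and -0.72 to -2.66, -2.88 and -2.60 (-2.00 ± 0.13, adjusted p = 9.1e-05), and all 3 of its probes fell, by 1.62 to 2.00. In CD41-KO cells Socs2 fell by 1.98, and the difference of -0.02 did not pass (adjusted p = 0.93).

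Cish, a target and inhibitor of STAT5, went from 1.14, 0.78 and 0.76 to -0.69, -0.86 and -0.61 (-1.61 ± 0.09, adjusted p = 5.3e-05). Its start site is shown because STAT5 is known to act on it through GAS elements, TTCNNNGAA, which read the same on both strands. Capitals mark the 2 matches, in RefSeq sequence of GRCm38.p6 at chr9:107296656-107296680 on the plus strand, beginning 3 bases before the start.
Cish: gttTTCCTGGAAagTTCTTGGAAat
Of 32851 windows from 250 bases before to 50 after a start, 0.457% held at least 2 such matches. The 250 bases before the start of Cish held 0 whole matches. Cish, Smad7, Hoxb8, Aldh1a1, Cdt1, Hdc, Ezh2, Ccne1, Zfpm1, Hoxa3 and the other genes outside the fixed rule were named after their values were seen.

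Immediate early genes, which respond to stimuli within minutes and also to cell handling, were higher in 7 of 27 tested members and lower in 7, and in 0 and 5 without the block. Dusp2, a phosphatase that turns off MAP kinases, went from 3.52, 3.06 and 3.21 to 1.91, 1.398 and 1.64 (-1.62 ± 0.06, adjusted p = 1.6e-05). Nr4a1, an orphan nuclear receptor linked to HSC quiescence, fell by 1.38 ± 0.06 and Junb by 0.69. The fall of Dusp2 was larger than in CD41-KO cells by 1.37 (adjusted p = 0.00029), and Junb rose there by 0.44. Of 26 NF-kB and inflammation genes 4 were higher and 8 lower (0 and 3 without the block), with Icam1 and Tnfaip3, a brake on NF-kB, lower by 1.00 and 1.01. Of 36 interferon genes 5 were higher and 9 lower, the latter near the background share (2 and 2 without the block). Ifitm1 fell by 0.95 and Gbp3 rose by 0.64.

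Among the 15 annotated genes with the deepest fall, Ebi3, which encodes a subunit of heterodimeric interleukins, went from 1.67, 1.15 and 1.36 to -0.86, -1.43 and -1.28 (-2.59 ± 0.13, adjusted p = 4.2e-05), and fell by 3.87 in CD41-KO cells. Plaur, the urokinase receptor gene, went from -1.08, -1.63 and -1.43 to -3.66, -3.72 and -4.04 (-2.43 ± 0.11, adjusted p = 2.6e-05). Evl, an actin regulator of the Ena/VASP family, fell by 2.15, and Socs2, Sparc and Prr33 were also well above background on some 12-month arrays. A further 8 were not well above background on any 12-month array, so only a bound can be given: at least 3.76-fold for the Toll-like receptor gene Tlr12, 3.89-fold for the Hedgehog factor gene Gli2 and 3.09-fold for Chrdl2, a BMP antagonist gene, with Hey1, Cep44, Fam184b, Gfpt2 and Ankrd63 completing the 8. The highest 15 held 7 genes not well above background on any 2-month array, among them Exoc3l4, at least 6.30-fold higher, the angiotensin receptor gene Agtr1a, at least 1.91-fold, and Tex19.1, a germline gene that restrains transposons, at least 2.69-fold. Myl10, a myosin light chain gene, rose from -4.70, -4.17 and -4.16 to -0.55, -0.60 and -0.46.

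The size of a change in a dim gene depends on how background was removed. With normexp correction in place of the scanner's own, which adds an offset, Ear6 rose by 3.02 rather than 5.62, Selp by 2.69, Myl10 by 2.29 and Hoxd9 by 1.08, while Hey1 and Chrdl2 fell by 0.80 and 0.87. Bright genes moved less: Nupr1 rose by 2.37, Clu by 2.05 and Prg2 by 3.17. The median was also higher among dim than among bright genes, at 0.19 in the dimmest of the 4 bins, and 443 of 1209 olfactory and vomeronasal receptor genes, which blood cells are not known to use, were higher and 92 lower, with a median of 0.18.

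The CD41-KO arrays, which share no array with the wild-type ones but lie on the same slides, carried Xist at both ages. There 36.5% of genes were higher and 27.9% lower at 12 months, and 3.94% and 5.49% by at least 2-fold. Of the 702 genes higher by at least 2-fold in wild-type cells, 332 (47.3%) were called higher in CD41-KO cells and 151 were so by at least 2-fold, which is 21.5% of the wild-type and 12.4% of the CD41-KO genes. Of the 293 genes lower by at least 2-fold, 189 (64.5%) were called lower, and 117 by at least 2-fold, or 39.9% and 6.88%. A further 50 and 30 were called in the opposite direction. Across 30984 genes the effects correlated at 0.46 (Pearson's r, over genes, which are not independent replicates and share slides). Of the 15 highest genes 12 and of the 15 lowest 9 were also called in the same direction in CD41-KO cells, and 0 in the opposite one.

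The difference of the age effects passed for 20.9% of genes with the higher effect in wild-type cells and for 16.4% in the other direction. It passed for 12 of the 15 highest and 12 of the 15 lowest genes. Those genes were chosen by their wild-type effect, which is part of the difference, so their counts cannot be set against these shares. Ear6 and Myl10 stood at the top: Ear6 was at -4.74 and -4.80 in CD41-KO cells at 2 and 12 months, with an age effect of -0.01 (adjusted p = 0.99), and Myl10 at -0.19 (adjusted p = 0.26). Prg2 rose by 0.55 in CD41-KO cells, 2.85 less than in wild-type cells (adjusted p = 3.1e-05). Igsf23, an immunoglobulin superfamily gene, fell by 1.88 ± 0.07 in wild-type cells and rose by 1.08 in CD41-KO cells, a difference of -2.97 (adjusted p = 3.3e-05). Genotype, and the sex-linked transcripts of the 2-month groups that go with it, cannot be told apart in these differences.

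**Figure D4:**
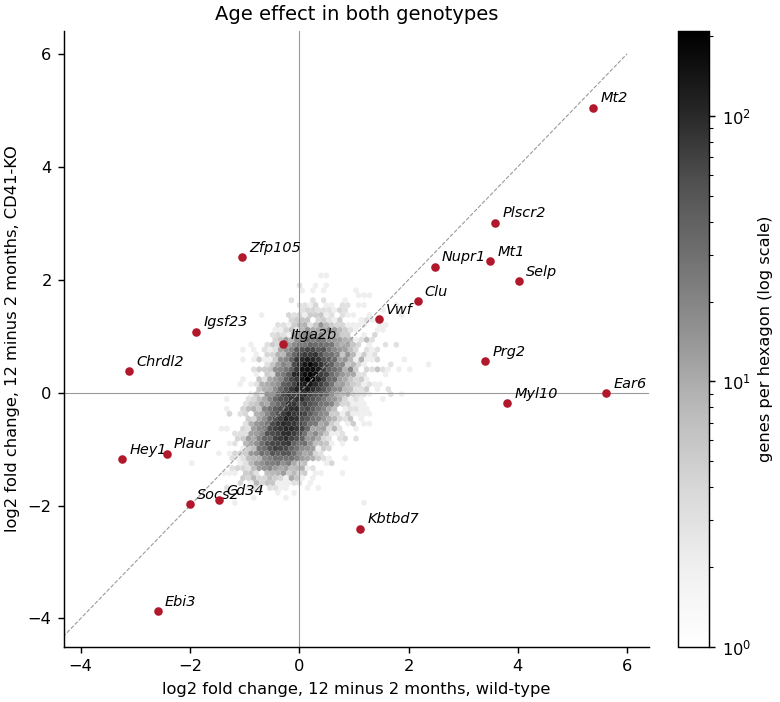
Log2 fold change from 2 to 12 months in CD41-KO cells (vertical axis) against that in wild-type cells (horizontal axis) for 17984 annotated genes, shaded by genes per hexagon, with 20 named genes in red and equality dashed. Mt2, Plscr2, Nupr1, Vwf and Socs2 lie near equality, while Ear6 and Myl10 lie near 0 in CD41-KO cells and Prg2 at 0.55.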

How the data were processed

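Per the file headers, each array's intensity per spot came from Agilent Feature Extraction 10.7.3.1, with probe positions on mm9, after background subtraction within the array and with no scaling across arrays. A table of log2 values deposited by the authors served as an alternative. Its normalization is not given in the sources consulted. On the 11 LT-HSC arrays, 82.7% to 93.3% of spots for genes exceeded background clearly, and the number of arrays limits the precision.

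Control and outlier spots were left out, signals were divided by the array's 75th percentile and taken to log2, and spots of a probe were averaged. The 2388 probes placed on X or Y were left out, and 599 without a position were kept. A probe was kept if well above background on all arrays of either wild-type age (46254 probes), and a gene was its brightest kept probe. Names were matched through accession or symbol to RefSeq (GRCm38.p6). Positions of probes within genes were not analysed.

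limma 3.58.1 in R 4.3.3 fitted all 11 arrays with 1 coefficient per group and the replicate number as a block (two-sided, Benjamini-Hochberg over all genes, threshold 0.05). The block was used because same-numbered wild-type arrays deviated together from their group means (correlations of 0.65, 0.78 and 0.51, against -0.56 to -0.10 for different numbers), and each number had its own slide. Replicates correlated at 0.975 to 0.989. Differences are on the log2 scale. The script was tested on simulated data. "At least" folds use the lowest signal among probes well above background.

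Members, lists and rules were chosen with earlier results of these data known. Named genes were a fixed set and up to 4 members of each list. The 15 highest and 15 lowest annotated genes called, with the same sign in 3 pairs and no overlap, were added. So were the 5 highest and 5 lowest for the genotype difference, among genes past its test. Alternatives covered the block, scaling, background, filter, probes of a gene, threshold and each array left out.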

Additional observations from a re-analysis of the deposited data

Results flagged for a closer look

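The 5 highest and 5 lowest genes by the difference of the age effects, wild-type minus CD41-KO, were taken from those past limma's test. Passing was thus a condition of the choice and no result. The difference was 5.62 for Ear6. It was 3.99 for Myl10. For Atg9b, which at 2 months had no wild-type array well above background, it was 3.63. Kbtbd7 differed by 3.53, although its wild-type change of 1.12 had an adjusted p of 0.041 and was lost without the block and without 5 of the 6 wild-type arrays in turn (all but 2-month replicate 1). Nucb2 differed by 3.45, and its wild-type change did not pass (adjusted p = 0.057). In the other direction Chrdl2, with no wild-type array well above background at 12 months, differed by -3.49. Zfp105 differed by -3.44, with a wild-type change of -1.05 that was lost without the block and without replicate 1 or 3 of either age. Cd109 differed by -3.00, with a wild-type change that did not pass. Igsf23 differed by -2.97. Drc3 differed by -2.95, and its wild-type change did not pass (adjusted p = 0.057). For Atg9b, Nucb2, Chrdl2 and Cd109, each with 1 wild-type age at which no array was well above background, the difference is a fitted value with no measured size or rank. All but Igsf23, Ear6 and Myl10 were at -2.64 or lower on every wild-type array. The wild-type groups carried transcripts of opposite sexes, so what sex adds to these differences was not tested.

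Outside the tested genes, Xist was higher on the 12-month than on the 2-month wild-type arrays by 7.16 on the log2 scale, with no overlap.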

How the results depend on the processing

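Without the replicate block, the 11 arrays gave 2383 genes higher and 1846 lower in wild-type cells, and the 6 wild-type arrays alone 1212 and 893. CD41-KO cells then had 5117 genes higher and 6135 lower, which turns their split to mostly lower, and the genotype difference 1637 higher and 1137 lower. Requiring 2-fold left 702 and 293. The 2-fold counts were 89 and 70 with normexp correction, 88 and 77 with the authors' table, and 322 higher when probes had to be above background on all 6 wild-type arrays. Leaving out single arrays or pairs gave 3842 to 6984 higher and 3190 to 5211 lower in wild-type cells, lowest without the replicate 1 pair and 4193 and 3314 without the replicate 2 pair (574 to 835 and 274 to 324 at 2-fold), 7418 to 11736 higher and 7225 to 8672 lower in CD41-KO cells, lowest without CD41-KO 2-month replicate 1, and 4321 to 6465 and 2915 to 5387 for the difference. Averaging probes turned 4 named genes, Mpo to 0.98, Lepr to 0.27, Ulk2 to -0.048 and Jam2 to 0.57, whose probes disagree. Of 171 named genes called, 97 were called under every alternative that tested them and 40 more were lost only without the block. The cause of these changes was not tested. Arrays with 1 lone sample in a group were fitted with the shared spread.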

Other observations

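Tdrd9, a germline helicase of the piRNA pathway, was at -6.46, -4.91 and -3.41 at 2 months and at -1.98, -1.90 and -2.09 at 12 months (2.94 ± 0.55, adjusted p = 0.0047, limma), and it rose by 3.44 in CD41-KO cells. The 2-month arrays were widely spread and the 12-month arrays lay together. Erythroid genes were mixed, with 10 of 26 tested members higher and 7 lower, and 4 and 2 without the block. Cldn13 rose by 1.83 and Ahsp, the chaperone of free alpha-globin, by 1.55, while Icam4 fell by 0.95 and the alpha-globin gene Hba-a1 by 0.89. Hba-a1 has a near-identical copy, so its signal may be shared.

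Some of the largest changes fell on probes with no annotated gene, chosen here after their values were seen. A probe on chromosome 6, with position chr6:70676692-70676751 on mm9, rose from -5.66, -3.69 and -4.31 to 4.91, 4.68 and 4.95. It did not pass in CD41-KO cells (0.64, adjusted p = 0.22, limma). That wild-type rise of 9.40 ± 0.37, or 677.1-fold, exceeded the 5.62 of Ear6. On chromosome 12 the probes at chr12:114498348-114498407 and chr12:114659630-114659689 rose by 4.61 ± 0.21 and 3.91 ± 0.24. In CD41-KO cells the former fell by 1.28 (adjusted p = 0.0025) and the latter did not pass (0.24, adjusted p = 0.46). Which genes these probes read was not analysed. Of the 370 genes whose probe had no position, 10 were higher and 4 lower by at least 2-fold. The lowest of them fell from 4.50, 3.92 and 4.24 to levels not well above background at 12 months, at least 514.4-fold, and averaged -6.85 and -6.40 in CD41-KO cells at 2 and 12 months. Whether such probes lie on the X or Y chromosome was not analysed.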
